A study of Mus musculus with 4 samples.

Results

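The genes of the unfolded protein response and the integrated stress response were compared between differentiating leukemic and normal erythroid progenitors of the mouse. The members are 42 genes named in a fixed list, and a feature of the array counted for a gene only where the annotation gave it exactly 1 gene symbol (the older name Ero1l was read as Ero1a). All 42 genes had such a feature, of 19938 genes with a feature of their own. MEL cells, an erythroleukemia line, had been grown in DMEM with FBS, L-glutamine and puromycin and were exposed to estradiol for 48 hours to differentiate. The ES-EP cells are normal erythroid progenitors, derived from ES cells, that had been expanded in StemPro34 with Epogen (erythropoietin), insulin-like growth factor, dexamethasone, murine SCF and b-mercaptoethanol. They were differentiated for 24 hours in StemPro34 with Epogen, insulin, mifepristone and b-mercaptoethanol. Each group had 2 cultures, lettered A and B, with 1 Affymetrix Mouse Gene 1.0 ST array per culture. The labels give no strain, no clone and no undifferentiated culture. Cell line, medium, agents and hours differed together and cannot be told apart, and nothing in the labels says when the duplicate cultures were grown, so the p-values measure only the spread between these arrays.

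Misfolded protein in the endoplasmic reticulum (ER) is sensed by PERK (Eif2ak3), IRE1 (Ern1) and ATF6, which raise the genes of chaperones, folding enzymes and protein disposal. PERK shares its substrate, the translation factor eIF2, with kinases that sense lack of heme (HRI, Eif2ak1) and lack of amino acids (GCN2, Eif2ak4). Phosphorylated eIF2 slows protein synthesis and favours translation of ATF4, a transcription factor that drives amino acid supply, feedback and, under lasting stress, death genes. In red cell precursors HRI is known for matching globin synthesis to heme. Most of these switches act on proteins, while the arrays measured RNA only.

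Among the 42 listed genes, the ER chaperone and folding genes and the ATF4 branch lay mostly on opposite sides. In MEL cells 11 of 16 ER chaperone and folding genes were higher than in ES-EP cells and 3 were lower, with a median log2 difference of 0.65 (MEL minus ES-EP). Of the 11 genes of the ATF4 branch, 8 were lower in MEL and 1 was higher, with a median of -0.69. Over all genes 21.8% were higher and 36.9% lower, with a median of -0.14. Among genes at or above the median signal these were 33.8%, 34.9% and -0.04. Outside the list the split was smaller. The medians were 0.10 over 28 further folding genes and -0.11 over 36 further genes around eIF2 and ATF4. The latter was near the median of all genes, -0.14. The ER stress sensor genes were split: Eif2ak3 was higher in MEL, while Atf6 and Ern1 were lower. Of the other eIF2 kinase genes listed, Eif2ak4 was higher and Eif2ak1 was lower. A gene counted as higher or lower at a limma adjusted p under 0.05 over all 28944 features tested, and as 2-fold different where the log2 difference also reached 1.

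Over all 42 members 16 were higher, 16 were lower and 10 did not pass. The background over all genes was 58.6% that passed: 21.8% were higher and 36.9% lower. Of the members 40 lay at or above the median signal of all genes, and of the genes there 33.8% were higher and 34.9% lower, so that the share of members that passed was near the background. At least 2-fold, 4 members were higher (7.38% of all genes) and 6 were lower (4.93% of all genes). Of the 9969 genes at or above the median signal, 1178 were at least 2-fold higher and 752 at least 2-fold lower. The median difference was -0.06 for the members and -0.14 for all genes. Arrays of RNA from whole cultures cannot tell fewer cells of a type from less RNA per cell.

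**Figure D1:**
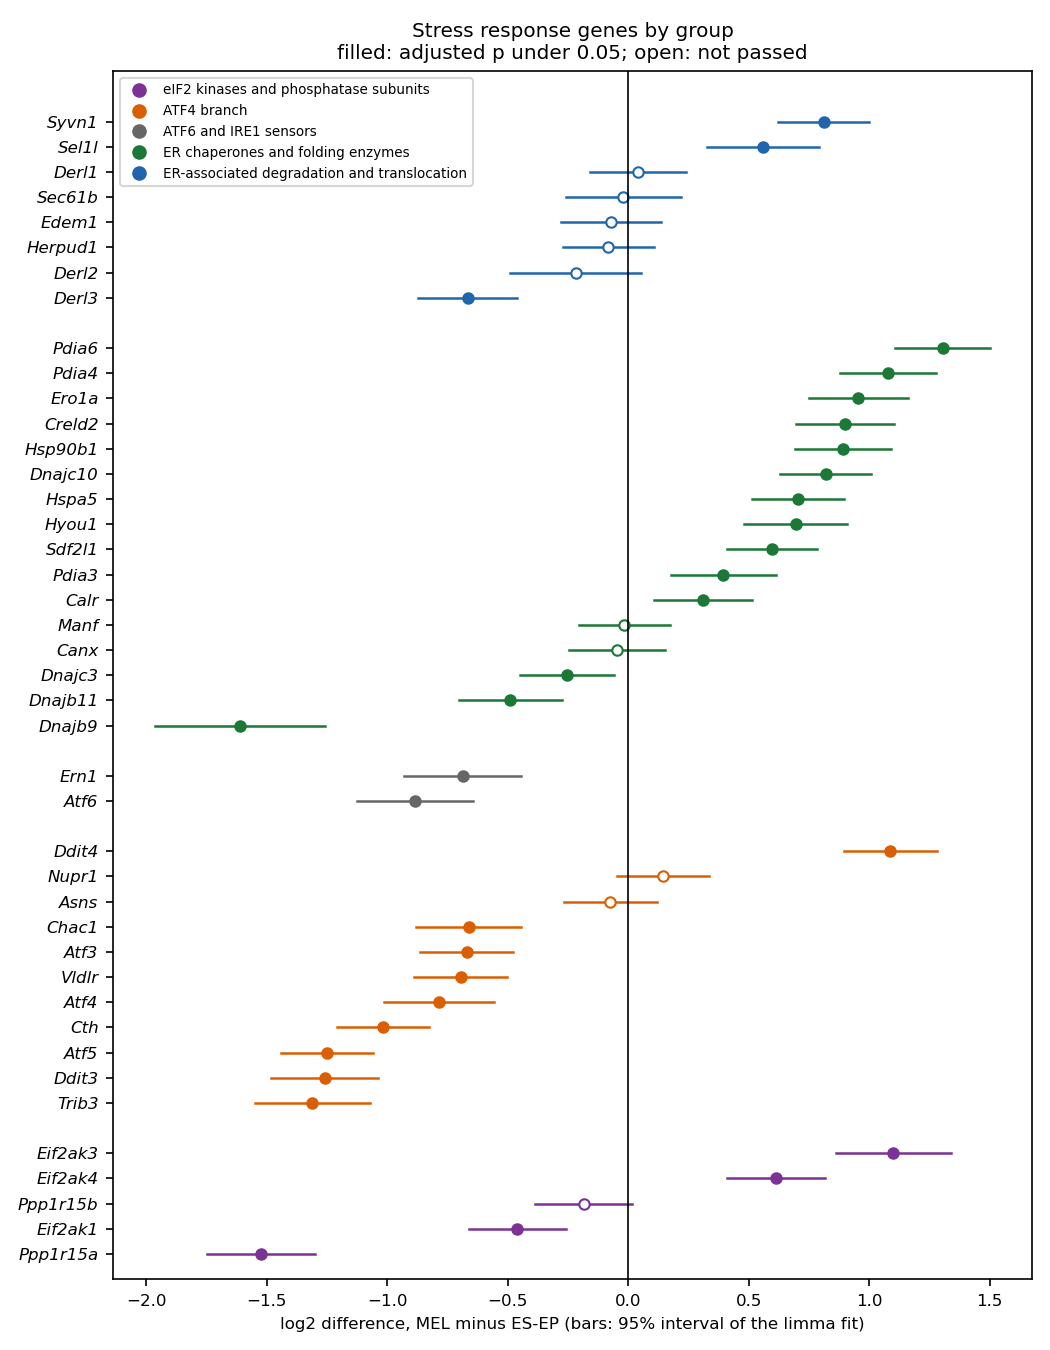
The log2 difference of each of the 42 genes, MEL minus ES-EP, is plotted as a point with the 95% interval of the limma fit as a bar (n = 2 arrays per group), coloured by gene group. Filled points passed an adjusted p under 0.05, and the ATF4 branch lies mostly to the left of 0 and the ER chaperones mostly to the right.

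The eIF2 kinases went in both directions. Eif2ak3 (PERK), the kinase of ER stress, had log2 values of 8.27 and 8.50 in the MEL cultures and 7.27 and 7.30 in the ES-EP cultures. Both MEL arrays lay above both ES-EP arrays, as in 28.7% of all genes. The gene was 2.14-fold higher in MEL (log2 difference 1.10 ± 0.10, SE, limma adjusted p = 0.000101). Eif2ak4 (GCN2), the amino acid sensor, was at 8.13 and 8.23 in MEL and at 7.53 and 7.60 in ES-EP cells, 1.53-fold higher. Eif2ak1 (HRI), the heme-regulated kinase, was at 10.06 and 10.13 in MEL and at 10.51 and 10.61 in ES-EP cells. Both MEL arrays lay below both ES-EP arrays, as in 51.5% of all genes. The gene was 1.37-fold lower in MEL (-0.46 ± 0.09, SE, limma adjusted p = 0.00325). Thus the kinase for heme was on the other side from those for ER load and amino acids.

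The eIF2 phosphatase is targeted by PPP1R15A (GADD34), which is induced by stress and ends the response, and by PPP1R15B, which acts without stress. Ppp1r15a was at 8.19 and 8.38 in MEL and at 9.84 and 9.78 in ES-EP cells, 2.87-fold lower in MEL (-1.52 ± 0.10, SE, adjusted p = 1.45e-05). Only 1.92% of all genes had a more negative difference. Ppp1r15b did not pass: its values were 10.11 and 10.21 against 10.37 and 10.32, a difference of -0.19 (95% interval -0.39 to 0.01, limma adjusted p = 0.100), which passed with an intensity trend in the prior (0.0215). A dimmer second feature of Ppp1r15b gave -0.27 and did not pass either (adjusted p = 0.0721).

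The transcription factors of the ATF4 branch were lower in MEL. Atf4 itself was at 9.55 and 9.75 in MEL and at 10.40 and 10.47 in ES-EP cells, 1.72-fold lower (-0.78 ± 0.10, SE, adjusted p = 0.000451). Ddit3, which encodes the death-promoting factor CHOP, was at 7.68 and 7.79 against 8.92 and 9.07, a 2.39-fold difference. Atf5, a relative of Atf4 under similar translational control, was at 8.29 and 8.31 against 9.52 and 9.58, 2.38-fold lower. In these 3 genes both MEL arrays lay well below both ES-EP arrays, with gaps larger than those between duplicates. Both MEL arrays lay below in 51.5% of all genes. Atf3, a stress-induced repressor, was dimmer, at 6.70 and 6.69 against 7.33 and 7.40, and was 1.59-fold lower.

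Of the targets and feedback genes of ATF4 listed in the branch, Trib3, Chac1, Cth and Vldlr were lower, Ddit4 was higher, and Asns and Nupr1 did not pass. Trib3, a pseudokinase that restrains ATF4 and CHOP, was at 8.74 and 8.97 in MEL and at 10.18 and 10.15 in ES-EP cells, 2.48-fold lower (-1.31 ± 0.10, SE, adjusted p = 4.08e-05). Chac1, an enzyme that degrades glutathione, was at 7.68 and 7.78 against 8.32 and 8.47, 1.58-fold lower. Cth, which makes cysteine from cystathionine, was at 8.67 on both MEL arrays and at 9.72 and 9.66 in ES-EP cells, 2.02-fold lower. Each of these genes had its MEL arrays below its ES-EP arrays, as did 51.5% of all genes. Vldlr, a lipoprotein receptor, was dim, at 4.54 and 4.51 against 5.25 and 5.19, a 1.62-fold difference at a signal where RMA values are compressed.

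Asns, the asparagine synthetase gene and a classical ATF4 target, did not follow Trib3 and Ddit3. It was bright in both systems, at 12.71 and 12.78 in MEL and at 12.81 and 12.83 in ES-EP cells, a difference of -0.07 (95% interval -0.27 to 0.12, limma adjusted p = 0.462). Nupr1, a small stress-induced chromatin protein gene, was at 8.48 and 8.52 against 8.36 and 8.35, a difference of 0.14 that did not pass (interval -0.05 to 0.33), though it passed after cyclic loess (limma adjusted p = 0.0371). Ddit4 (REDD1), an inhibitor of mTOR that also answers to hypoxia and glucocorticoids, was the exception in the branch. It was at 9.31 and 9.37 in MEL and at 8.25 on both ES-EP arrays, 2.13-fold higher in MEL (1.09 ± 0.08, SE, adjusted p = 3.46e-05).

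The promoters of several of these genes hold the composite element of C/EBP and ATF factors (CARE) through which ATF4 acts. RefSeq promoter windows of assembly GRCm38.p6, from 250 bases before to 50 after a transcript start, were found for 36 of the 42 genes (not for Hyou1, Derl1, Manf, Atf6, Ppp1r15b and Cth). The CARE letters TGATGNAA, searched on both strands (TTNCATCA on the opposite one), occurred in 7 of these 36 genes and in 4.511% of the 27025 genes with a window. The 7 were Atf3, Trib3, Chac1, Asns, Vldlr, Nupr1 and Herpud1, of which 4 were lower in MEL, 0 were higher and 3 did not pass. Over all genes 36.9% were lower and 21.8% higher, and among genes at or above the median signal 34.9% and 33.8%. Of the ATF4 branch, the lower genes Atf4, Atf5 and Ddit3 and the higher gene Ddit4 had a window without a match. Windows around the match are shown for a pair of genes that were lower in MEL and for a pair that did not pass, read along the gene's strand with the matched letters in capitals.
Atf3 (chr1:191183416-191183463, minus strand): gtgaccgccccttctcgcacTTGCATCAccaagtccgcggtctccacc
Chac1 (chr2:119351029-119351076, plus strand): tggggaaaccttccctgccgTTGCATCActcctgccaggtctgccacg
Asns (chr6:7693210-7693252, minus strand): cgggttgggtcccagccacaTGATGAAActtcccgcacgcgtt
Nupr1 (chr7:126625553-126625600, minus strand): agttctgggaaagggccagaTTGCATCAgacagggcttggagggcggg
The same 8 letters stood in Atf3, Chac1 and Nupr1, in each case on the opposite strand, and their differences were -0.67, -0.66 and 0.14. The match is a description of the letters and shows no binding.

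The sensor genes Atf6 and Ern1 were lower in MEL, unlike the sensor gene Eif2ak3. Atf6, a membrane-bound factor that is cut in the Golgi and then activates chaperone genes, was at 8.69 and 8.91 in MEL and at 9.63 and 9.74 in ES-EP cells, 1.85-fold lower (-0.88 ± 0.10, SE, adjusted p = 0.000322). Ern1 (IRE1), the kinase and RNase that splices the Xbp1 message, was at 6.74 and 6.98 against 7.57 and 7.53, 1.61-fold lower. In each gene both MEL arrays lay below both ES-EP arrays, as in 51.5% of all genes. The MEL duplicates lay further apart than the ES-EP duplicates here, with MEL culture B the higher one.

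**Figure D2:**
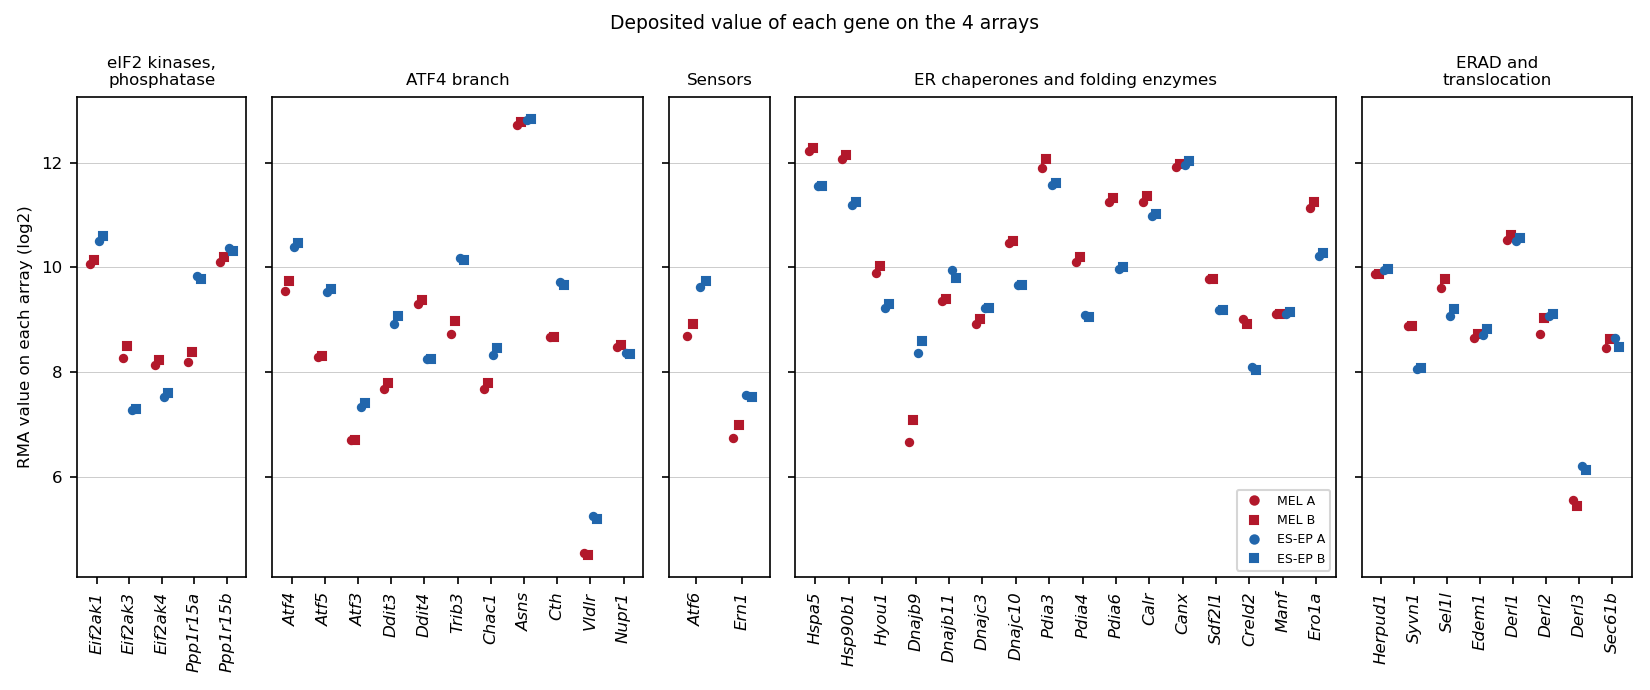
Deposited log2 values of the 42 genes are plotted for each of the 4 arrays (red, MEL; blue, ES-EP; circles, culture A; squares, culture B), in 1 panel per gene group. Values are to be compared within a gene only, since each feature has its own brightness. Duplicates lie close together beside the gaps between groups in genes such as Pdia6 and Ppp1r15a. Those of Dnajb9 lie further apart, by up to 0.42.

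The large luminal chaperones were higher in MEL. Hspa5 (BiP), the ER member of the HSP70 family that also holds the sensors inactive, was at 12.22 and 12.28 in MEL and at 11.55 on both ES-EP arrays, 1.63-fold higher (0.70 ± 0.08, SE, adjusted p = 0.000313). Hsp90b1 (GRP94), the ER member of the HSP90 family, was at 12.08 and 12.15 against 11.18 and 11.26, 1.86-fold higher. Hyou1, a large HSP70 relative that recharges BiP, was at 9.89 and 10.03 against 9.23 and 9.30, 1.62-fold higher. In all 3 genes the lower MEL array lay above the higher ES-EP array, as in 28.7% of all genes. The lectin chaperones of glycoproteins differed less: Calr (calreticulin) was 1.24-fold higher (0.31 ± 0.09, SE, adjusted p = 0.0185), and its membrane-bound relative Canx (calnexin) did not pass (-0.05, interval -0.24 to 0.15). The call of Calr was lost without MEL culture B or either ES-EP culture (limma adjusted p = 0.0546, 0.108 and 0.0847).

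The 5 members that form or reduce disulfide bonds were higher in MEL, and Pdia6, Pdia4 and Ero1a had the largest rises of the 16 ER chaperone and folding genes. Pdia6, a protein disulfide isomerase, was at 11.25 and 11.33 in MEL and at 9.96 and 10.01 in ES-EP cells, 2.47-fold higher (1.30 ± 0.08, SE, adjusted p = 1.60e-05), and 5.01% of all genes had a larger difference. Pdia4, a further isomerase, was at 10.11 and 10.19 against 9.10 and 9.05, 2.11-fold higher. Its second feature was dim, with means of 5.35 (MEL) and 5.49 (ES-EP), and gave -0.14 without passing, so its features disagree. Ero1a, the oxidase that recharges the isomerases and is also known to be induced by hypoxia, was at 11.13 and 11.26 against 10.21 and 10.27, 1.94-fold higher. Dnajc10 (ERdj5), a reductase that unfolds proteins for disposal, was at 10.47 and 10.51 against 9.67 on both ES-EP arrays, 1.76-fold higher. Pdia3, the isomerase of the lectin cycle, was higher by 1.31-fold, but with ES-EP culture A left out it did not pass (adjusted p = 0.0520).

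Smaller stress-induced ER proteins went the same way, except Manf. Creld2 was at 9.02 and 8.91 in MEL and at 8.10 and 8.03 in ES-EP cells, 1.86-fold higher (0.90 ± 0.09, SE, adjusted p = 0.000124). Sdf2l1, which works with BiP and its cochaperones, was at 9.77 on both MEL arrays and at 9.18 on both ES-EP arrays, 1.51-fold higher. Manf, a secreted protein that binds BiP, was at 9.11 on both MEL arrays and at 9.11 and 9.15 in ES-EP cells. The difference of -0.02 did not pass (interval -0.21 to 0.17, limma adjusted p = 0.873).

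Dnajb9, Dnajb11 and Dnajc3, J domain cochaperones that deliver substrates to BiP, were lower in MEL, against the direction of BiP and of their relative Dnajc10. Dnajb9 (ERdj4), a target of the IRE1 branch that also silences IRE1, was at 6.66 and 7.08 in MEL and at 8.36 and 8.60 in ES-EP cells, 3.05-fold lower (-1.61 ± 0.15, SE, adjusted p = 0.000105). It had the most negative difference of the 42 genes, and 1.72% of all genes had a more negative one. Its duplicates were also far apart, by up to 0.42 on the log2 scale. Dnajb11 (ERdj3) was at 9.36 and 9.40 against 9.95 and 9.79, 1.40-fold lower (-0.49 ± 0.09, SE, adjusted p = 0.00314). Dnajc3 (p58IPK), which also inhibits eIF2 kinases, was 1.19-fold lower (-0.25, adjusted p = 0.0343). Its 2 features carried identical values, and its call was lost after centring and cyclic loess (adjusted p = 0.225 and 0.106), with the control features included (0.0578), without MEL culture A (0.0774) and without ES-EP culture A or B (0.163 and 0.157).

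The ER stress response element (ERSE), bound by ATF6 with the factor NF-Y, was searched as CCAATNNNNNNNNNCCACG, which on the opposite strand reads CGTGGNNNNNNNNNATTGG. It occurred in 9 of the 36 members with a promoter window, Hspa5, Hsp90b1, Dnajc3, Pdia6, Calr, Canx, Creld2, Syvn1 and Derl3, and in 37 of 27025 genes (0.137%). Of these 9, 6 were higher in MEL, 2 were lower and 1 did not pass. The related ERSE-II, ATTGG followed by CCACG with 1 base between them, occurred in Dnajb11 and Herpud1 and in 0.044% of all genes, and the core of the XBP1 element, TGACGTGG, in 0 of 36 members and 0.714% of all genes. Both strands were searched in each case. The windows around the ERSE match of 4 genes that were higher in MEL and of both genes that were lower are shown, with the match in capitals along the gene's strand.
Hspa5 (chr2:34772005-34772063, plus strand): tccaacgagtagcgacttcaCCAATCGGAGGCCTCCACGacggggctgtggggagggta
Pdia6 (chr12:17266471-17266529, plus strand): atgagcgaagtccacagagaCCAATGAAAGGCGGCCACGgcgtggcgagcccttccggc
Creld2 (chr15:88819500-88819558, plus strand): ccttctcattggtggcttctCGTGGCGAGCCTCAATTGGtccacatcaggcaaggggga
Syvn1 (chr19:6046512-6046570, plus strand): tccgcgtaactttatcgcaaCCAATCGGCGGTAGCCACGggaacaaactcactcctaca
Dnajc3 (chr14:118937807-118937865, plus strand): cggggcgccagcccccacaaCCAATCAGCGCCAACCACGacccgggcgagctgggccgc
Derl3 (chr10:75893222-75893280, plus strand): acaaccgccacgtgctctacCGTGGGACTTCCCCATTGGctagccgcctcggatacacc
The element was thus present in 6 members that were higher and 2 that were lower. Over all genes 21.8% were higher and 36.9% lower, and among genes at or above the median signal 33.8% and 34.9%. Of the lower members, Dnajc3 lost its call under several alternatives and Derl3 was dim. Of the higher members, Calr lost its call with single cultures left out. A link between the element and the direction was not tested. Hsp90b1 held 2 matches, at 212 and 107 bases before its start, while Hspa5 held its match at 65 and Syvn1 at 44 bases before the start.

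Genes of ER-associated degradation, which returns misfolded proteins to the cytosol for disposal by the proteasome, were split. Syvn1 (HRD1), the ubiquitin ligase of the pathway, was at 8.88 and 8.89 in MEL and at 8.06 and 8.08 in ES-EP cells, 1.76-fold higher (0.81 ± 0.08, SE, adjusted p = 0.000141). Its partner Sel1l was at 9.61 and 9.79 against 9.07 and 9.21, 1.47-fold higher. Derl3, a derlin of secretory cells, was dim and lower in MEL, at 5.56 and 5.44 against 6.20 and 6.13 (1.59-fold, adjusted p = 0.000603). The other members did not pass. Herpud1, a scaffold of the ligase and a target of several branches, differed by -0.08 (interval -0.27 to 0.11) and Edem1, a mannosidase-like lectin, by -0.07 (-0.28 to 0.14). Derl1 differed by 0.04 and passed under quantile normalization (limma adjusted p = 0.0480), and Derl2 differed by -0.22 and passed without MEL culture B (0.0178). The translocon subunit Sec61b had 3 features: the brightest differed by -0.02, the second by -0.33 (adjusted p = 0.0250) and the third by -0.01.

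**Figure D3:**
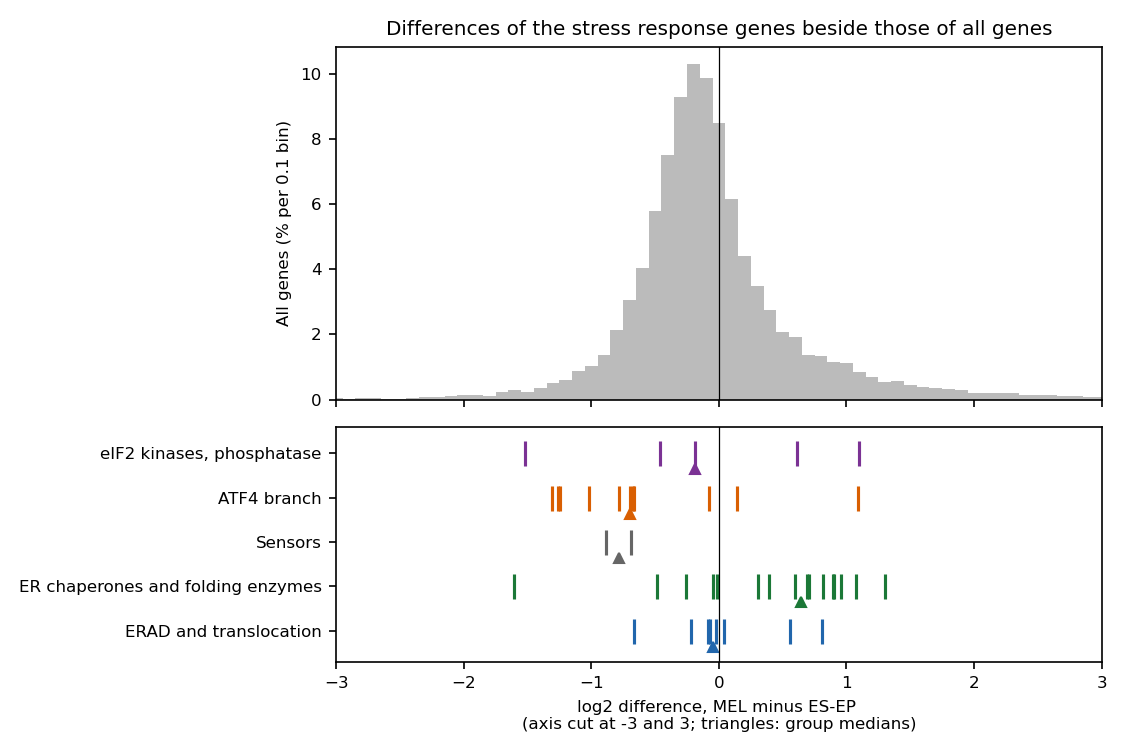
The upper panel shows the share of the 19938 genes in each bin of the log2 difference, MEL minus ES-EP, and the lower panel marks each stress response gene by a bar, with a triangle at the median of its group. The ATF4 branch median lies at -0.69 and the ER chaperone median at 0.65, on either side of the median of all genes at -0.14.

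The groups overlapped in 5 of the 42 members and in 3938 of all 19938 genes. Both MEL arrays lay above both ES-EP arrays in 17 members (28.7% of all genes) and below them in 20 (51.5% of all genes). Of the 9969 genes at or above the median signal, 4135 lay above, 4511 lay below and 1323 overlapped. Duplicate arrays correlated with r = 0.997 (MEL) and 0.998 (ES-EP) across features, which are not independent replicates. Their levels were not equal: MEL culture B was above culture A in 36 of 42 members, with a median gap of 0.08, and in 52.7% of all genes. Among genes at or above the median signal the share was 73.8%.

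The gap between the chaperones and the ATF4 branch was larger than the shifts between scalings. The median of the chaperones minus that of the ATF4 branch was 1.34 as deposited and 1.37 after cyclic loess. The median of all genes, -0.14 as deposited, moved to -0.02 under quantile normalization, -0.07 with centred arrays and 0.02 under cyclic loess. Relative to it the chaperones stood at 0.78 as deposited and 0.74 after cyclic loess, and the ATF4 branch at -0.56 and -0.63. Of all genes that passed, 37.1% were the higher ones in MEL as deposited, 48.3% under quantile normalization, 44.3% with array medians centred and 54.3% under cyclic loess. Among the members 31 of the 32 calls kept their direction and their side of the threshold under all 3 of these scalings, with Dnajc3 the exception.

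**Figure D4:**
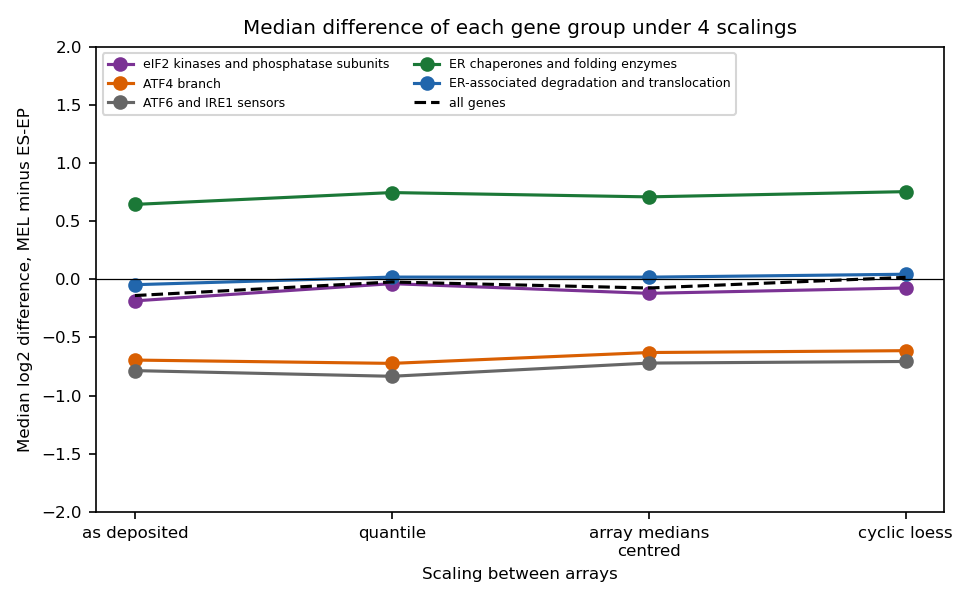
Median log2 difference, MEL minus ES-EP, of each gene group and of all genes (dashed) is plotted for the deposited values and 3 other scalings between arrays. The ER chaperones stayed between 0.65 and 0.75 and the ATF4 branch between -0.72 and -0.61, while the small median of the degradation genes changed sign.

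Further genes of the pathways outside the 42 were read from 4 wider lists. Their counts stand beside a background of 21.8% higher and 36.9% lower over all genes. Among genes at or above the median signal it was 33.8% higher and 34.9% lower. Of 36 measured genes around eIF2 and ATF4, 10 were higher and 13 lower, with a median of -0.11. Gadd45a, a stress-induced growth arrest gene, was at 9.28 and 9.19 in MEL and at 11.54 and 11.52 in ES-EP cells, 4.90-fold lower, and the alanine transaminase gene Gpt2 was 2.71-fold higher. The serine synthesis gene Psat1, an ATF4 target, was 1.94-fold higher, against the direction of Trib3. Eif2ak2 (PKR), the eIF2 kinase for double-stranded RNA, differed by -0.01 and did not pass.

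Among 15 measured sensors and factors of the unfolded protein response 5 were higher and 5 lower. Xbp1, the factor activated by IRE1, was at 9.77 and 9.93 in MEL and at 8.27 and 8.24 in ES-EP cells, 3.01-fold higher (1.59 ± 0.09, SE, adjusted p = 9.52e-06). The feature gives the message as a whole and does not tell its spliced from its unspliced form. Xbp1 was thus higher in MEL where Ern1 and Dnajb9 were lower. Atf6b, the paralogue of Atf6, was picked after its value was seen: it was at 9.32 and 9.40 in MEL and at 8.29 and 8.49 in ES-EP cells, 1.96-fold higher (adjusted p = 0.000153) and so opposite to Atf6. Map3k5 (ASK1), a kinase downstream of IRE1, was 6.96-fold higher in MEL, at 7.55 against a dim 4.75. Creb3l1 (OASIS), a relative of ATF6, was picked after its value was seen: it was at 8.16 and 8.25 in MEL and at 5.41 and 5.43 in ES-EP cells, 6.89-fold higher. Creb3l3, a further relative, was dim and lower (-0.35, adjusted p = 0.0202), a call that was lost after centring and cyclic loess (0.0606 and 0.131) and without MEL culture B or ES-EP culture B (0.0700 and 0.118).

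Of 28 further measured folding genes 12 were higher and 6 lower, with a median of 0.10. P4hb, the archetypal disulfide isomerase, was 1.65-fold higher, and Mogs, the glucosidase that starts the trimming of glycans, was 2.87-fold higher. Pdia2, an isomerase known from pancreas, was 2.92-fold lower. Of 35 measured genes of degradation, translocation and signal peptide removal, 12 were higher and 13 lower, with a median of 0.00. The channel subunit Sec61a1 was 2.27-fold higher, unlike Sec61b, while the deubiquitinase Yod1 was 2.39-fold lower and Vcp, the ATPase that extracts proteins from the ER, was 1.38-fold lower.

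Over 12 measured erythroid markers the median log2 level was 10.78 (MEL) and 11.40 (ES-EP), and 10 were lower in MEL, 6 of them at least 2-fold, and 2 higher. The median difference of these markers was -0.94. The higher ones were Gata1 (0.46) and Epor (0.42). Slc4a1, the anion exchanger of maturing red cells, was picked after its value was seen and had means of 7.04 (MEL) and 12.48 (ES-EP). Its difference was the most negative of these markers, and the next was -1.42 (Tspo2). Markers of other cell types also differed, beside a background of 21.8% higher and 36.9% lower over all genes. Of 6 megakaryocyte markers 4 were higher in MEL and 2 did not pass. Their summed linear level was 1226 to 1253 on the MEL arrays against 377 to 445 on the ES-EP arrays. Most of that gap came from Itga2b (mean log2 value 9.12 in MEL, 6.89 in ES-EP) and Pf4 (8.34 and 3.96). Of 7 mast cell markers 6 were lower, with sums of 193 to 201 against 454 to 456. Most of that gap came from Ms4a2 (mean log2 value 3.93 in MEL, 7.45 in ES-EP). Markers of plasma cells, which have a heavily loaded ER, and of B cells were read together, with median levels of 4.81 and 4.82. Of these 9 markers 1 was higher (Sdc1, at 7.93 in MEL against 7.18 in ES-EP) and 2 were lower. Granulocyte and monocyte markers had 1 of 13 higher and 5 lower, pluripotency markers 1 of 8 higher and 5 lower, and fibroblast and endothelial markers 2 of 10 higher and 3 lower, at median levels of 4.56 to 6.23 (MEL) and 5.10 to 5.31 (ES-EP). The part of other cell types in the results above was not tested.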

How the data were processed

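RNA of 4 cultures was measured on 1 array each. The authors deposited RMA values, made with GeneSpring GX per the labels, and their range shows a log2 scale. Its version, the filters and the genome build were not given in the sources used here. Total RNA is meant to be evened out between arrays by RMA, which also compresses dim features, and no detection calls were used. The deposited arrays were not on a fully equal scale. Quantile normalization of these values moved the median difference of all genes, MEL minus ES-EP, from -0.14 to -0.02.

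Of 35557 rows, 6613 unannotated rows, which the array uses as controls, were left out and 28944 were tested with limma 3.58.1 in R 4.3.3 (lmFit, eBayes, Benjamini-Hochberg over all tested features, no block). Residual degrees of freedom were 2, with 5.15 added by the prior. An exact permutation of 4 arrays cannot reach the threshold, so significance rests on variance shared across features. With 2 arrays per group, their number limits the precision. Genes were named from the platform annotation, updated through Entrez identifiers with RefSeq (GRCm38.p6, 21698 matches), and the brightest feature stood for a gene. ± SE is that of the fit, and intervals are 95%.

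The members and lists were chosen with earlier results of these data known. Named are all 42 members, the largest passing rise and fall of each wider list, and Xbp1, Eif2ak2, Psat1, P4hb and Vcp. Creb3l1, Atf6b and the markers Slc4a1, Gata1, Epor, Tspo2, Sdc1, Itga2b, Pf4 and Ms4a2 were picked after their values were seen. Alternatives were other scalings, priors and filters, the mean of a gene's features, the replicate letter as a block, and each culture left out. The procedure was tested on simulated data.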

Additional observations from a re-analysis of the deposited data

How the results depend on the processing

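The counts of 16 higher and 16 lower members stayed within 1.5 times under all 13 alternatives, and leaving out 1 culture gave 14 to 16 higher members. The 4 members higher by at least 2-fold became 6 under quantile normalization and cyclic loess. They became 5 with array medians centred and 3 with the mean of a gene's features. The 6 members lower by at least 2-fold became 5 under the 3 other scalings. The median difference of the members, -0.06, became 0.048 after cyclic loess. The median of the chaperones minus that of the ATF4 branch, 1.34, became 1.47 after quantile normalization and 1.23 with the mean of a gene's features. Genes near 0 changed sign without passing. After cyclic loess Asns was at 0.036, Canx at 0.066, Manf at 0.086, Herpud1 at 0.028, Edem1 at 0.017, Sec61b at 0.060 and Eif2ak2 at 0.075. After centring on array medians Canx was at 0.019, Manf at 0.048, Sec61b at 0.044 and Eif2ak2 at 0.052. After quantile normalization Canx was at 0.016, Manf at 0.038 and Herpud1 at 0.058. With 1 culture left out in turn Manf ranged from -0.035 to 0.0015, Derl1 from -0.0012 to 0.082, Sec61b from -0.11 to 0.063 and Eif2ak2 from -0.13 to 0.11. The cause was not tested. With the replicate block the fit gave 16 higher and 16 lower members, and 42 of 42 kept their direction and call. The letters are not stated to pair the cultures (deviations of same-lettered cultures correlated with r = 0.11 across features). Of the 32 members that passed, 29 kept direction and call under every alternative that gave them a value. The exceptions were Calr, Dnajc3 and Pdia3. The dim members, Vldlr and Derl3, have no value with features under the median left out.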
